A study of Mus musculus with 12 samples.

Results

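Imprinted miRNAs of the Dlk1-Dio3 cluster were examined in the small RNA that mouse bone marrow mesenchymal stem cells released in extracellular vesicles. The members were all count rows whose name carries one of 44 miRNA numbers assigned to the cluster, with both arms of each hairpin taken. This rule used names alone and no measured value. It gave 95 members among 1978 rows with a mouse miRNA name, in a table of 3509 rows, and 43 of the 95 had a count in some library. Extracellular vesicles are membrane particles that cells release with RNA inside. The series holds 12 libraries in 4 groups of 3, named DZ, aFM, NY and PLL, with replicates A, B and C in each. Every library was labelled as bone marrow mesenchymal stem cells of specific-pathogen-free C57BL/6 mice with an antigen treatment, also in DZ. The design text describes exposure of the cells to ESPs, HCF or pLL at 2 µg/ml for 48 h before vesicles were collected by ultracentrifugation. The labels do not say what DZ, aFM and NY stand for or which group, if any, was unstimulated, so DZ served only as a common reference. No label ties a replicate to a culture or animal of its own, so each p-value reflects the spread among these libraries alone, and that spread can be technical.

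The Dlk1-Dio3 region is an imprinted domain, in which the allele's parent of origin decides whether a gene is read. The protein-coding genes Dlk1, Rtl1 and Dio3 are read from the paternal copy, and the long noncoding RNAs Meg3, Rian and Mirg, with the miRNAs, from the maternal copy. The miRNAs are processed from these maternal transcripts, and those antisense to Rtl1, miR-127 among them, direct cleavage of the paternal Rtl1 mRNA. The cluster is best known from embryo, placenta and brain, and its silencing marks some induced pluripotent stem cells of poor quality.

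Mature sequences of 91 of the 95 members were found in RefSeq (GRCm38.p6), and those of miR-376c-3p, miR-485-5p, miR-487b-3p and miR-539-3p were not matched. By position, 94 members lay on chromosome 12 and miR-496b, which had no count, lay outside it. The hairpins on chromosome 12 spanned 180.104 kb of the 828.275 kb from Dlk1 to Dio3. The following 7 mature miRNAs are shown because the group differences described here rest on them. Bases 2 to 8, the seed by which a miRNA pairs with its targets, are in capitals.
miR-127-3p: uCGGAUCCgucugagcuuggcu
miR-409-3p: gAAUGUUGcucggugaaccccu
miR-379-5p: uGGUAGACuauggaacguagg
miR-411-5p: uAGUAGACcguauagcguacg
miR-381-3p: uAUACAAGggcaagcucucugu
miR-341-3p: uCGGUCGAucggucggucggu
miR-543-3p: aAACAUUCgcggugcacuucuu

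No pair of these 7 shared a seed. miR-379-5p and miR-411-5p, whose hairpins are neighbours, were identical at 14 of 21 positions and at 6 of 7 seed bases. Counted from 1 at the 5′ end, with miR-379-5p first, the seed difference was G2A. Their other arms did share a seed, AUGUAAC, and had 11 counts together in aFM, 2 in PLL and 0 in DZ and NY. In the sequence table the seed of miR-379-5p also occurs in miR-1193-5p, a miRNA of the same locus with 0 counts. The seed of miR-411-5p also occurs in miR-7229-5p, and those of the other 5 in no other entry. miR-341-3p consists largely of the repeated letters UCGG. The hairpins of 4 of them are shown with both mature arms in capitals, since the arm that was counted differed between them.
Mir127, chr12:109592846-109592915, plus strand: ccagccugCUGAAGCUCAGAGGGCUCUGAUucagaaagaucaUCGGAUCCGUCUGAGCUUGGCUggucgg
Mir379, chr12:109709060-109709125, plus strand: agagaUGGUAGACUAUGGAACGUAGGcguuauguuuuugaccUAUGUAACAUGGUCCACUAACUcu
Mir411, chr12:109710175-109710256, plus strand: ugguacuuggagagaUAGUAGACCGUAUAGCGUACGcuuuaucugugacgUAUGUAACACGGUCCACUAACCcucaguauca
Mir341, chr12:109611500-109611595, plus strand: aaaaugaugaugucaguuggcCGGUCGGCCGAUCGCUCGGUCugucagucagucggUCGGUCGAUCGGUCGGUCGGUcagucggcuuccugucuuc

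In the GENCODE M21 annotation of GRCm38, 20 hairpins had at least 10 counts over both arms. Of these, 4 (Mir433, Mir127, Mir434 and Mir136) overlapped an exon of Rtl1 on the opposite strand. Mir341 and Mir370 lay in introns of the noncoding gene Rian. A further 8, from Mir379 to Mir487b, lay in no annotated host gene between Rian and Mirg. The last 6 lay within Mirg, Mir541 and Mir409 in introns and Mir382, Mir134, Mir485 and Mir412 across exons.

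Total counts ran from 68647 to 214303 per library, and predicted loci without a miRNA name took 39.3% to 89.7% of them. Annotated miRNAs held 17607 to 60436 counts per library. PLL replicate A stood apart, with the lowest scaling factor of the 12 libraries (0.730). All 9 mesenchymal miRNAs of a marker list had counts, and their summed share of annotated counts was 17.4% to 22.4% as group means. Markers of other cells were also present: the haematopoietic list took group means of 6.30% to 10.6% and the liver miRNA miR-122-5p 0.269% to 1.55%. Most counts of the haematopoietic list were of miR-486a-5p (17927) and miR-451a (8883). miR-142a-5p had 866, and miR-142a-3p, miR-144-3p, miR-150-5p and miR-223-3p had 23 to 57 each over all libraries. Vesicle RNA was pooled within each library, so a change in the cells that contribute vesicles and a change in RNA per cell or vesicle cannot be told apart.

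The cluster took a small share of the miRNA counts in every library, and that share was lowest in DZ and highest in aFM. Over the 12 libraries the members held 1386 of 357613 annotated counts, or 0.388%. In DZ they held 15, 23 and 36 counts in replicates A, B and C, which were 0.0820%, 0.131% and 0.145% of annotated counts. In NY they held 81, 70 and 82 counts, or 0.269%, 0.199% and 0.290%. In PLL the counts were 212, 147 and 95, or 0.351%, 0.416% and 0.332%. In aFM they were 173, 192 and 260, or 0.755%, 0.723% and 0.878%. The mean share was 0.119% ± 0.0332 for DZ, 0.253% ± 0.0475 for NY, 0.366% ± 0.0437 for PLL and 0.786% ± 0.0820 for aFM (SD, n = 3).

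The libraries of the 4 groups did not overlap in this share, and the gap was widest between aFM and the others. The 2 nearest libraries of DZ and NY had overlapping Wilson 95% intervals, 0.105% to 0.201% for DZ replicate C and 0.158% to 0.252% for NY replicate B. Such intervals cover counting error only and not the spread between libraries. They are also too narrow where several reads stem from 1 molecule, as can happen where no molecular identifiers were used. The shares are sums over chosen members and carry no test. Without PLL replicate A the PLL mean was 0.374%. Without miR-127-3p, the most counted member, the order was kept at 0.0869% in DZ, 0.173% in NY, 0.270% in PLL and 0.569% in aFM. Against all counts with predicted loci included, the order of the upper 2 groups turned, with 0.158% ± 0.0487 in PLL and 0.122% ± 0.0479 in aFM (SD, n = 3). DZ stood at 0.0222% ± 0.0121 and NY at 0.0579% ± 0.00351 on that scale (SD, n = 3), so DZ remained lowest.

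**Figure D1:**
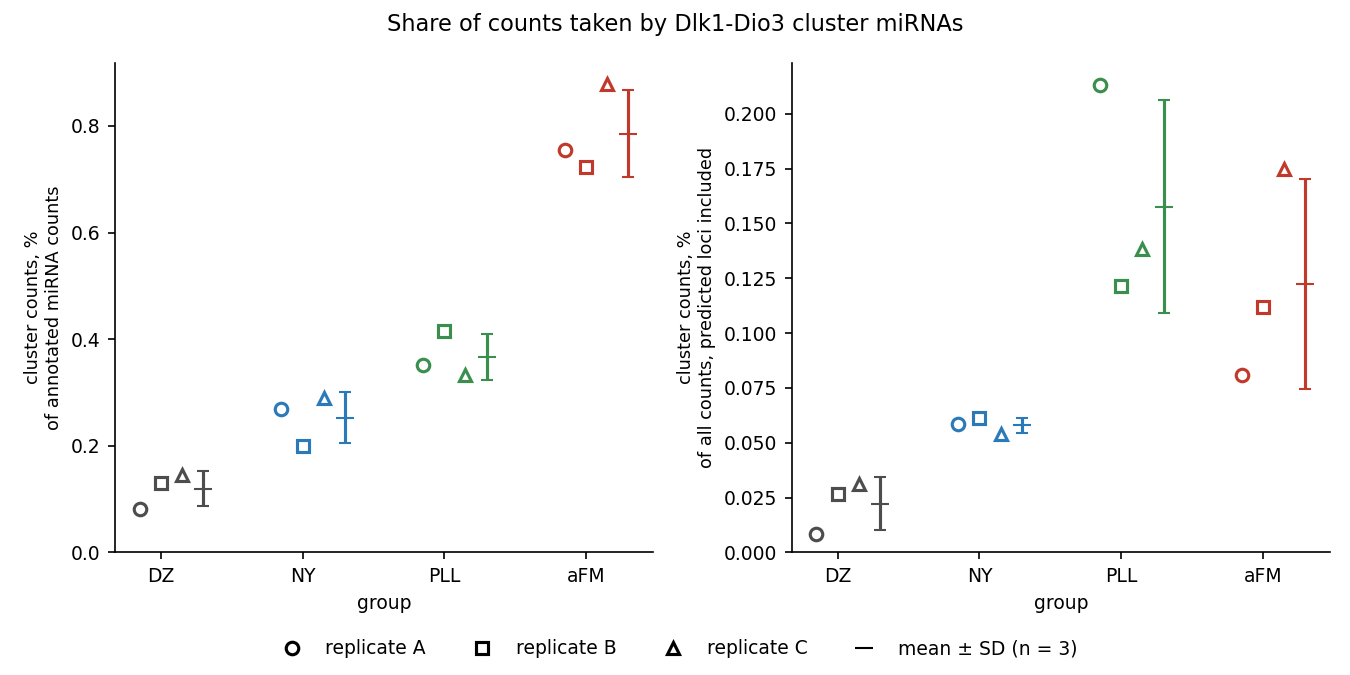
Share of counts taken by the 95 cluster members in each of the 12 libraries, in percent of annotated miRNA counts (left) and of all counts with predicted loci included (right); symbols are replicates A, B and C, and bars are mean ± SD of 3 libraries. On the left the 4 groups do not overlap, from 0.0820% in DZ replicate A to 0.878% in aFM replicate C, while on the right PLL and aFM overlap.

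Markers of other cell types also differed between groups, though not all in the cluster's order. The endothelial list (miR-126a-3p and miR-126a-5p, both with counts) took 0.0831% ± 0.0511 of annotated counts in DZ, 0.0580% ± 0.0298 in NY, 0.198% ± 0.0672 in PLL and 0.515% ± 0.0126 in aFM (SD, n = 3). The neural list had counts for 3 of 4 members and took 0.254% ± 0.0314 in DZ, 1.03% ± 0.144 in NY, 11.1% ± 4.10 in PLL and 3.92% ± 0.176 in aFM (SD, n = 3). miR-219a-5p of that list was at 0, and most counts were miR-9-5p in aFM, NY and PLL and miR-128-3p in DZ. As list sums, aFM was thus highest for the endothelial list through miR-126a-3p and PLL for the neural list through miR-9-5p. The other members did not follow. miR-126a-5p had 5 counts in aFM, 4 in DZ, 1 in PLL and 0 in NY. miR-128-3p had 294 counts in aFM and 280 in PLL, and miR-124-3p had 12 and 10, from fewer annotated counts in aFM. The muscle list took 0.207% as a mean for NY and 0.0335% to 0.0341% for the others, and the epithelial list 0.131% for DZ and 0.0571% to 0.0673% for the others. The liver miRNA miR-122-5p took 1.51% to 1.61% by library in aFM, 0.304% to 0.860% in PLL, 0.222% to 0.326% in NY and 0.169% to 4.06% in DZ. The haematopoietic list stood at mean shares of 10.6% for DZ, 9.87% for NY, 6.53% for aFM and 6.30% for PLL, and the mesenchymal list at 20.9%, 22.4%, 17.4% and 17.6%, in the same order of groups. The part of these cells in the cluster's levels was not tested. Other imprinted miRNAs, 86 rows of the Sfmbt2 cluster, miR-335, miR-483 and miR-675, of which 15 had counts, did not show the same order. Their share was lowest for DZ (0.109% ± 0.0633) and then aFM (0.150% ± 0.0443), and it was highest for PLL (0.252% ± 0.1252) and NY (0.255% ± 0.173; SD, n = 3). Most of those counts, 555 in all, were of miR-466i-5p. Without it the means were 0.0480% ± 0.0140 for NY, 0.0429% ± 0.0127 for DZ, 0.0355% ± 0.00480 for aFM and 0.0264% ± 0.0186 for PLL (SD, n = 3), so PLL was then lowest.

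Cluster members were detected more often than annotated miRNAs at large. The number detected also differed between groups, as did that of all annotated miRNAs. A count in some library was found for 45.3% of members against 25.3% of all annotated rows, a description with no test. At least 10 counts were held by 21 members, and 22 had between 1 and 9. The other 52 were at 0 in all libraries, 13 were seen in a single library, and 0 were seen in all 12. A DZ library held 5, 9 or 11 members, an NY library 12 to 15, each aFM library 19, and a PLL library 21 to 25. Thinned to a common depth of 17607 annotated counts, the expected number of members was 18.0 ± 2.75 for PLL, 17.6 ± 0.235 for aFM, 12.1 ± 0.658 for NY and 7.90 ± 2.57 for DZ (SD, n = 3). At this depth the means of aFM and PLL differed by less than the spread of the PLL libraries, although the cluster's share was lower in PLL. The same thinning was applied to all annotated miRNAs. It gave 221 ± 8.19 for DZ, 228 ± 2.90 for NY, 248 ± 7.33 for aFM and 247 ± 16.9 for PLL (SD, n = 3). Counts in 1 group alone were found for 9 members in PLL, 4 in aFM, 3 in NY and 0 in DZ, and each of these members had fewer than 10 counts in all. These numbers were not set to a common depth, and the same share over all annotated miRNAs was not taken. Mean annotated counts per library were 41468 in PLL, 26354 in aFM, 31162 in NY and 20220 in DZ. No difference between groups is therefore read from them.

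The hairpins were counted mainly from 1 arm. Of the 20 with at least 10 counts, 16 had over 90% of them on 1 arm, 12 were mostly counted as the 3p arm and 8 as the 5p arm. The 5p arm gave 0.496% of Mir127 counts (Wilson 95% interval 0.136% to 1.79%) and 0.578% of Mir409 counts (0.102% to 3.20%). It gave 91.8% of Mir379 counts (85.2% to 95.6%) and 95.8% of Mir411 counts (89.7% to 98.4%). Mir434 and Mir382 were the hairpins nearest to balance, with 60.9% (48.7% to 71.9%) and 66.0% (52.2% to 77.6%) from the 5p arm. In Mir434 the arm balance also varied by group, with 8 counts of the 5p arm and 2 of the 3p arm in aFM, 19 and 7 in NY, 8 and 11 in PLL, and 4 and 5 in DZ. That variation was not tested.

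The 5 members that passed the filter on low counts were miR-127-3p, miR-409-3p, miR-379-5p, miR-411-5p and miR-381-3p, which together held 61.8% of the cluster's counts. A row was tested only if it reached 10 counts when scaled to the median depth in at least 3 libraries, and 132 annotated miRNAs did. miR-127-3p exceeded it in 10 libraries, from all 4 groups. miR-409-3p exceeded it in 6, of aFM, NY and PLL. miR-411-5p and miR-381-3p exceeded it in the 3 aFM libraries and in no other, and miR-379-5p in 2 aFM libraries and 1 of NY. Members let in mainly by aFM were thus bound to be higher there, and counts or medians over the 5 are given as a description only. Levels are in CPM, the counts of the tested miRNAs scaled to a fixed total on library sizes adjusted by the TMM method. A count of 0 allows up to 3 counts, or 69.0 to 186 CPM depending on the library.

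miR-127-3p, which lies antisense to Rtl1 and pairs perfectly with its mRNA, was the most counted member. It had 46, 46 and 82 counts in aFM replicates A, B and C, 36, 16 and 21 in NY, 83, 32 and 17 in PLL, and 6, 0 and 16 in DZ. In CPM the aFM libraries lay between 1718 and 2517, PLL between 549 and 1909, NY between 504 and 1212, and DZ between 0 and 616. aFM lay above DZ and NY without overlap, whereas PLL replicate A reached into the aFM range and DZ overlapped NY and PLL. The mean levels were 2069 ± 408 CPM in aFM, 1092 ± 721 in PLL, 809 ± 364 in NY and 329.2 ± 310 in DZ (SD, n = 3).

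miR-409-3p, processed from a hairpin in an intron of Mirg, had 29, 37 and 31 counts in aFM, 14, 15 and 18 in PLL, 5, 8 and 12 in NY, and 0, 3 and 0 in DZ. Its mean level was 1192 ± 220 CPM in aFM, 429 ± 135.9 in PLL, 275 ± 120 in NY and 57.8 ± 100 in DZ (SD, n = 3). The lowest aFM library (952 CPM) lay above the highest PLL library (582 CPM), and all PLL libraries lay above DZ. NY overlapped both PLL and DZ.

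miR-379-5p and miR-411-5p come from adjacent hairpins at the start of the intergenic stretch, yet they were not distributed alike. miR-379-5p had 8, 14 and 28 counts in aFM, 8, 5 and 11 in NY, 10, 6 and 4 in PLL, and 4, 0 and 3 in DZ. miR-411-5p had 30, 30 and 18 counts in aFM, 3 in each NY library, 0, 3 and 0 in PLL, and 0, 0 and 1 in DZ. In aFM the mean of miR-379-5p was 575 ± 262 CPM and that of miR-411-5p 986 ± 384 CPM (SD, n = 3). Outside aFM the order was opposite, with 266 ± 107 against 99.0 ± 3.82 CPM in NY, 171 ± 52.7 against 25.5 ± 44.2 in PLL and 121 ± 124 against 12.8 ± 22.2 in DZ (SD, n = 3). The difference between the 2 in their change was not tested.

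miR-381-3p, further along the same stretch, had 13, 19 and 27 counts in aFM, 8, 11 and 0 in PLL, 3, 2 and 3 in NY, and 0, 3 and 2 in DZ. It stood at 699 ± 136.3 CPM in aFM, 155 ± 143 in PLL, 88.5 ± 22.0 in NY and 83.5 ± 86.9 in DZ (SD, n = 3). The aFM libraries lay above all others, and the other 3 groups overlapped.

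**Figure D2:**
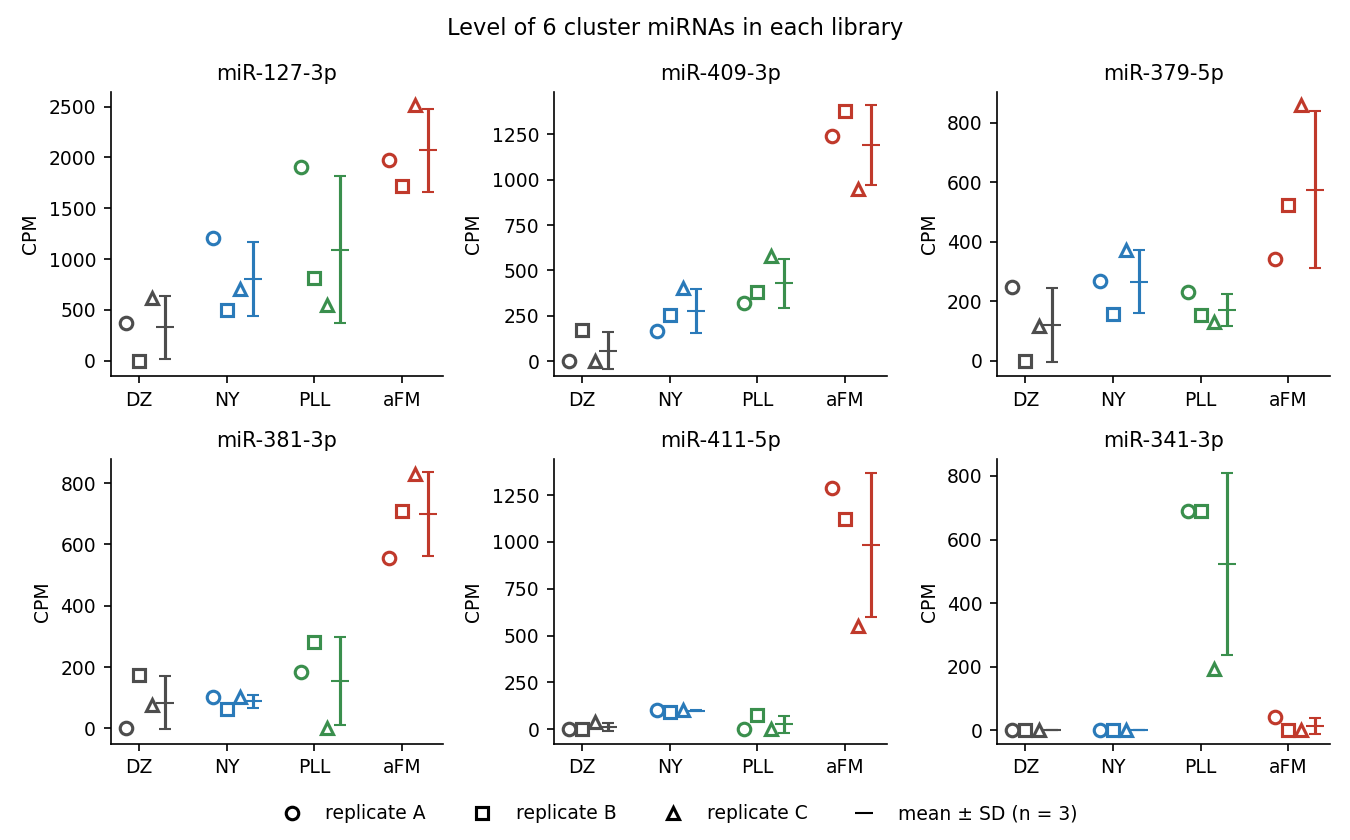
Level of 6 cluster miRNAs in each of the 12 libraries, in CPM on a linear axis; symbols are replicates A, B and C, and bars are mean ± SD of 3 libraries. miR-409-3p, miR-381-3p and miR-411-5p lie highest in all 3 aFM libraries, miR-127-3p overlaps between aFM and PLL, and miR-341-3p lies at 194 to 690 CPM in PLL and at or below 42.8 CPM elsewhere.

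Between aFM and DZ, 4 of the 5 tested members rose in aFM by edgeR and the fifth did not pass, whereas DESeq2 called all 5 (21.4% of its tested miRNAs). The background was 18.9% of 132 miRNAs called, 9.09% called higher. miR-411-5p had a log2 fold change of 5.56 ± 1.01 (SE; edgeR adjusted p = 0.00470) and miR-409-3p one of 4.40 ± 0.82 (edgeR adjusted p = 0.00474). miR-381-3p rose by 3.00 ± 0.91 and miR-127-3p by 2.57 ± 0.75 on the log2 scale (edgeR adjusted p = 0.0415 for each). miR-379-5p differed by 2.25 ± 0.74 (edgeR adjusted p = 0.0539, DESeq2 adjusted p = 0.0255). All 5 had an unadjusted edgeR p under 0.05, against 30.3% of tested miRNAs, and all 5 lay above DZ without overlap, against 18.2%. The median log2 fold change was 3.00 over the 5 and -0.14 over all tested. Since miR-411-5p and miR-381-3p passed the filter through aFM libraries alone, and miR-379-5p mainly so, these counts and this median only describe the 5.

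Both miR-411-5p and miR-409-3p also passed in this comparison under all 21 alternatives computed. miR-127-3p passed in 12 of 21, and was lost without DZ replicate A or B or any one library of aFM or NY (edgeR adjusted p up to 0.112 in these), and when predicted loci entered the fit. miR-381-3p passed in 8 of 21. It was lost without any one DZ, aFM or NY library or PLL replicate B (edgeR adjusted p up to 0.156), and with unadjusted library totals, the replicate letter as a block or predicted loci in the fit.

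The comparisons of NY and PLL with DZ use the same 3 DZ libraries, and no tested member passed in either. In NY against DZ, where 0.758% of the 132 were called, the log2 fold changes of the 5 ran from 0.06 for miR-381-3p to 2.31 for miR-409-3p and miR-411-5p, with a median of 1.21 against 0.02 over all tested. At an unadjusted edgeR p under 0.05, which 14.4% of the 132 had, there was 1 member, miR-409-3p (2.31 ± 0.89, edgeR adjusted p = 0.246), and the same member passed without DZ replicate B. The value for miR-381-3p changed sign in 11 of its 20 alternatives. miR-411-5p did not overlap between NY and DZ, as 9.85% of tested miRNAs did in that direction. That separation lies within the floor. The NY libraries stood at 94.6 to 101 CPM, and the counts of 0 in DZ replicates A and B allow up to 186 and 173 CPM. DESeq2 called 0 members in this comparison and 4.58% of its tested miRNAs.

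In PLL against DZ, where 3.79% of the 132 were called, miR-409-3p came nearest, at 2.93 ± 0.86 on the log2 scale (edgeR adjusted p = 0.0647). It passed in 4 of 20 alternatives, DESeq2 and the fit without DZ replicate B among them. miR-127-3p followed at 1.66 ± 0.74 (edgeR adjusted p = 0.170), and these 2 were the members at an unadjusted edgeR p under 0.05, against 28% of the 132. Without PLL replicate A, the library that stood apart, miR-127-3p was at 0.92 and miR-409-3p at 3.06. The remaining values were 0.90 ± 0.99 for miR-381-3p, 0.56 ± 1.45 for miR-411-5p and 0.53 ± 0.79 for miR-379-5p. The first 2 turned negative without PLL replicate B, and the last without DZ replicate B. miR-409-3p did not overlap between the groups, as 10.6% of tested miRNAs did in that direction, and the median of the 5 was 0.90 against 0.22 over all tested. DESeq2 called 1 member here and 15.6% of its tested miRNAs.

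When NY and PLL were each compared with aFM, using the same 3 aFM libraries, miR-411-5p was the only tested member that passed. It fell by 3.25 ± 0.73 on the log2 scale in NY relative to aFM (edgeR adjusted p = 0.0270), where 3.79% of tested miRNAs were called and 3.03% called lower. That call was lost without any one library of aFM or NY (edgeR adjusted p up to 0.155). It was also lost with the replicate letter as a block (edgeR adjusted p = 0.0730), where 0 members and 1.52% of tested miRNAs were called. miR-381-3p differed by -2.93 ± 0.84 (edgeR adjusted p = 0.0630) and miR-409-3p by -2.10 ± 0.62 (edgeR adjusted p = 0.0682). miR-127-3p differed by -1.35 ± 0.68 (edgeR adjusted p = 0.214) and miR-379-5p by -1.12 ± 0.64 (edgeR adjusted p = 0.268). The NY libraries lay below aFM without overlap for 4 of the 5, against 19.7% of tested miRNAs, and miR-379-5p overlapped. An unadjusted edgeR p under 0.05 was found for 3 of the 5 and for 27.3% of the 132. The median was -2.10 over the 5 and 0.18 over all tested. Members let in mainly by aFM were bound to lie lower in NY, so these counts and this median are a description only.

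In PLL relative to aFM, miR-411-5p fell by 5.01 ± 0.84 on the log2 scale (edgeR adjusted p = 0.00442) and passed under all 21 alternatives. Of the 132 miRNAs 9.09% were called, 3.03% lower. The other 4 had values of -2.10 for miR-381-3p, -1.72 for miR-379-5p, -1.48 for miR-409-3p and -0.91 for miR-127-3p, with edgeR adjusted p from 0.101 to 0.347. Of the 5, 4 lay below aFM without overlap, against 17.4% of tested miRNAs, and miR-127-3p overlapped. An unadjusted edgeR p under 0.05 was found for 4 of the 5 and for 32.6% of the 132. The median of the 5 was -1.72 against 0.31 over all tested. These counts and this median are again a description only, because members let in mainly by aFM were bound to lie lower in PLL. When predicted loci entered the fit, the median of the annotated miRNAs moved to 2.13 in this comparison. miR-127-3p (1.07), miR-409-3p (0.37) and miR-379-5p (0.01) then turned positive, though all 3 stayed below that median.

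Between PLL and NY no member passed, and 6.82% of the 132 were called. The values ran from -1.75 ± 0.99 for miR-411-5p (edgeR adjusted p = 0.310) to 0.84 ± 0.90 for miR-381-3p (edgeR adjusted p = 0.564). At an unadjusted edgeR p under 0.05 there were 0 members, against 21.2% of the 132, and DESeq2 called 0 (9.92% of its tested miRNAs). In CPM miR-411-5p lay lower in all PLL libraries than in NY, as 15.2% of tested miRNAs did. Its counts were 3 in each NY library and 0, 3 and 0 in PLL, all within the floor of 3 counts. PLL replicate B was thus lower through library scaling alone. The median of the 5 was 0.44 against 0.17 over all tested. In the joint test of any group difference, miR-411-5p (edgeR adjusted p = 0.00174) and miR-409-3p (edgeR adjusted p = 0.0130) passed, where 12.1% of the 132 did. miR-381-3p had an adjusted p of 0.0524 in edgeR's joint test, and miR-127-3p and miR-379-5p one of 0.0915 each.

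**Figure D3:**
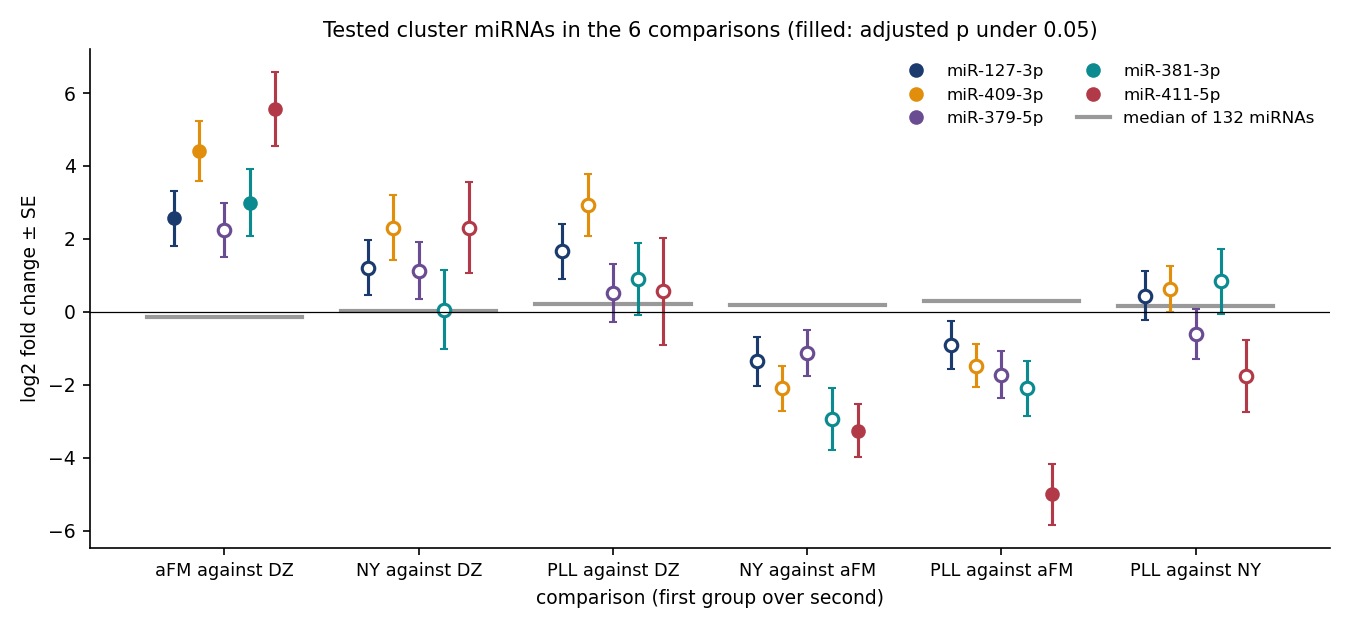
Log2 fold change ± SE (edgeR, 12 libraries in 1 fit) of the 5 tested cluster miRNAs in each of the 6 comparisons, first group over second; filled points have an adjusted p under 0.05, and grey lines mark the median of all 132 tested miRNAs. The 5 points lie above the grey line in aFM against DZ, where 4 are filled, and below it in NY and PLL against aFM, where miR-411-5p alone is filled.

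miR-341-3p, from a hairpin in an intron of Rian, followed another pattern and was counted almost entirely in PLL. It had 30, 27 and 6 counts in PLL replicates A, B and C, 1 count in aFM replicate A, and 0 in the other aFM libraries and in all DZ and NY libraries. The PLL mean was 524 ± 286 CPM (SD, n = 3). It exceeded the low-count limit in 2 libraries and so was not among the 132. With 3 counts over the group as the floor, its level in PLL was at least 11.0-fold higher than in DZ and at least 16.8-fold higher than in NY. Over aFM the ratio was 45.9, with a 95% counting interval of 7.94 to 1840. These intervals and floors do not cover the spread between libraries.

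With no filter on low counts, 501 miRNAs and 43 members were tested, and miR-341-3p passed in all 3 comparisons with PLL. The edgeR adjusted p was 0.00969 against DZ, where 3.39% of the 501 were called, 0.0181 against aFM (2.99%) and 0.00178 against NY (3.19%). The miRNA could be tested in 12 alternatives in all. It passed in 3 of them against DZ, 8 against aFM and 9 against NY, with edgeR adjusted p up to 0.0951, 0.144 and 0.0732. Apart from the fit without the filter, miR-341-3p entered these alternatives through PLL libraries alone, and was thus bound to be higher there. These numbers of passes therefore only describe miR-341-3p. PLL replicates A and B hold 30 and 27 of its 64 counts, and without either one it was not tested. Calls of the main fit were kept without the filter, for the same 4 members in aFM against DZ (2.99% of the 501) and for miR-411-5p against aFM. The latter had an edgeR adjusted p of 0.0167 in NY and 4.2e-05 in PLL. Calls gained without the filter were miR-409-3p in PLL against DZ (edgeR adjusted p = 0.0361), and miR-381-3p and miR-409-3p in NY against aFM (edgeR adjusted p = 0.0391 and 0.0491, where 2.2% of the 501 were called). In NY against DZ 0 members passed without the filter (1.4% of the 501), and in the joint test 5 did (7.58%).

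miR-134-5p, a brain miRNA known to limit dendritic spine size through Limk1, was also seen mainly in PLL, with 5, 3 and 10 counts there, 0, 0 and 2 in NY and 0 in aFM and DZ. Its level in PLL was at least 4.37-fold higher than in aFM and at least 3.14-fold higher than in DZ, and 7.21-fold higher than in NY (95% counting interval 1.73 to 64.1). miR-543-3p resembled the tested members, with 10, 7 and 18 counts in aFM, 10, 3 and 3 in PLL, 0, 1 and 5 in NY, and 0, 1 and 2 in DZ. Its mean was 414 ± 146 CPM in aFM and 44.9 ± 40.1 in DZ (SD, n = 3), and without the filter on low counts its edgeR adjusted p was 0.205. miR-494-3p had 10 counts in aFM, 1 in PLL and 0 elsewhere. miR-495-3p had 13 counts in aFM, 4 in PLL, 3 in DZ and 0 in NY, and miR-412-5p had 11 in aFM, 6 in PLL and 0 in the other groups. Of the 13 aFM counts of miR-495-3p, 9 came from replicate A. Of these 5 miRNAs, none passed in any comparison of the edgeR fit without the filter.

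By pooled count, not all members were lowest in DZ or highest in aFM. miR-434-5p, another miRNA antisense to Rtl1, had 19 counts in NY, 8 each in aFM and PLL and 4 in DZ. miR-434-3p had 11 counts in PLL, 7 in NY, 5 in DZ and 2 in aFM. miR-370-3p, the second Rian miRNA, had 16 in PLL, 11 each in aFM and NY and 4 in DZ. miR-370-3p and miR-341-3p, whose hairpins lie in the same host gene, thus had unlike counts outside PLL. miR-541-5p had 9 counts in PLL, 5 each in DZ and NY and 4 in aFM. These pooled counts are not scaled for depth. On TMM-scaled sizes miR-541-5p was highest in DZ, 1.06-fold over PLL, 1.53-fold over NY and 1.74-fold over aFM. On the same scale miR-434-3p was 1.09-fold higher in DZ than in NY. For miR-434-3p, miR-370-3p and miR-541-5p, all ratios between groups had 95% counting intervals that include 1. For miR-434-5p the intervals of NY over DZ (1.03 to 12.5) and NY over PLL (1.24 to 7.83) did not include 1, whereas that of NY over aFM did (0.902 to 5.70).

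The remaining members with at least 10 counts were spread thinly. miR-433-3p had 16 counts each in aFM and PLL, 5 in NY and 3 in DZ, of which 13 came from aFM replicate C. miR-382-5p had 14 in aFM, 13 in PLL, 6 in NY and 0 in DZ, and its other arm miR-382-3p had 9 in NY, 4 in PLL and 2 each in aFM and DZ. miR-136-3p had 7 in PLL, 6 in aFM and 0 elsewhere. miR-485-5p had 6 in NY, 5 in PLL and 1 each in aFM and DZ. miR-487b-3p had 8 in PLL and 5 in DZ, the latter all in replicate B. The 22 members with 1 to 9 counts held 33 counts in aFM, 28 in PLL, 18 in NY and 1 in DZ.

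The counts were also summed by stretch of the cluster, without a test. Hairpins antisense to Rtl1 held 45.9% of the cluster's counts in DZ, 44.6% in NY, 39.0% in PLL and 33.0% in aFM. By library the groups overlapped, from 17.4% to 61.1% in DZ, 37.1% to 58.0% in NY, 29.5% to 47.6% in PLL and 25.5% to 40.4% in aFM. The stretch between Rian and Mirg, which holds Mir379, Mir411 and Mir381, gave 42.9% in aFM, 32.4% in DZ, 23.6% in NY and 19.8% in PLL. By library this stretch gave 38.8% to 46.9% in aFM, 19.8% to 26.8% in NY and 17.0% to 25.2% in PLL. aFM lay above NY and PLL without overlap, whereas DZ ranged from 22.2% to 52.2% on 24 counts. The 2 Rian hairpins gave 17.4% in PLL and 1.92% to 5.41% in the other groups, and 63 of their 79 counts in PLL were miR-341-3p. The PLL libraries, at 8.42% to 20.4%, overlapped DZ at 0% to 13.3% and NY at 2.44% to 8.57%. Mirg hairpins gave 24.5% in NY, 23.6% in PLL, 22.2% in aFM and 16.2% in DZ, and the PLL libraries alone ranged from 16.0% to 44.2%. The Meg3 hairpin Mir770 had 4 counts in all.

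**Figure D4:**
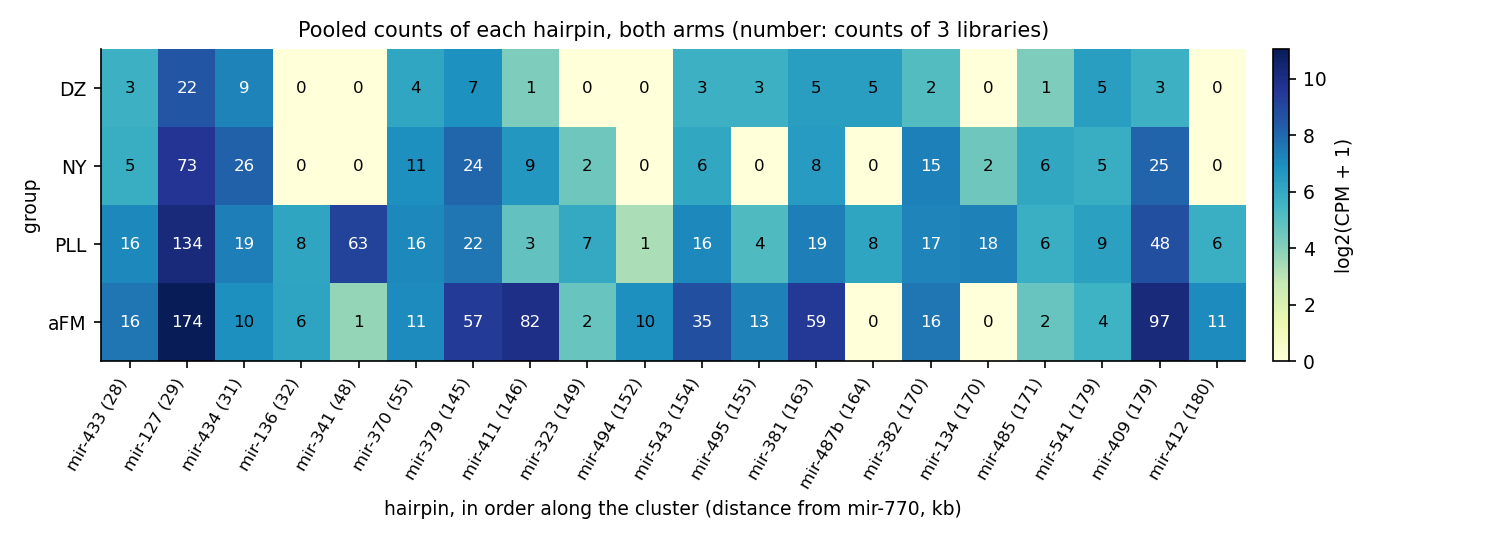
Counts of the 20 hairpins with at least 10 counts, in their order along the cluster; rows are groups, the number in a cell is the pooled count of 3 libraries over both arms, and colour is log2(CPM + 1). Mir411 has 82 counts in aFM and 1 to 9 in the other groups, and Mir341 has 63 in PLL and 0 or 1 elsewhere.

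The annotation places 23 other miRNAs between Dlk1 and Dio3 that the 44 numbers leave out, and 3 of them had counts. miR-493-5p had 7, 15 and 23 counts in aFM, 13, 5 and 0 in PLL, 3, 4 and 0 in DZ and 1, 0 and 2 in NY. miR-1247-3p, encoded near Dio3, had 7, 18 and 6 counts in PLL, 5, 6 and 5 in aFM, 5, 1 and 2 in DZ and 3, 1 and 0 in NY. The counting ratio of miR-493-5p was 4.62 for aFM over DZ (95% interval 2.07 to 12.1) and 16.5 for aFM over NY (5.30 to 83.1). The ratio of miR-1247-3p was 1.44 for aFM over DZ (0.580 to 3.88) and 6.21 for PLL over NY (2.20 to 24.2). Neither passed the filter on low counts.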

How the data were processed

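Small RNA counts of 12 vesicle libraries were used. The deposited values are whole-number counts per row, as the values show, and the authors did not normalize them. Per the submitters' processing notes, processing involved STAR, StringTie, FastQC and DESeq2 on build mm39, and the miRNA caller is not given in the sources used here. The extraction text in the labels describes mRNA libraries, whereas the design text names a small RNA kit. Coordinates and sequences are from GRCm38 annotation and were not converted.

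Libraries were grouped by title. Predicted loci entered neither library sizes nor tests. Tests used edgeR 4.0.16 in R 4.3.3 (filterByExpr with a minimum count of 10, TMM, quasi-likelihood, 1 term per group, 12 libraries), two-sided, with Benjamini-Hochberg adjustment over 132 miRNAs and a threshold of 0.05. The tested miRNAs covered 98.0% or more of the annotated counts in every library. The common biological coefficient of variation was 40.4%. Count ratios have exact conditional intervals on TMM-scaled sizes. The procedure was tested on simulated data. Alternatives were other scalings, no filter, DESeq2 1.42.0, fits of 2 groups, a replicate block, all rows, merged identical rows and leaving out each library.

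Members and lists were chosen with earlier results of these data known. Every tested member and every member or hairpin with at least 10 counts is named, and the rest are given by number. Libraries of the same letter in NY and DZ deviated together from their group means (r = 0.18, 0.34 and 0.13), each above 0.1. No other 2 groups met this for all letters, and aFM and DZ missed it in letter B alone (r = 0.06). A library correlated best with its own letter in 6 of 6 cases between DZ and NY, and also in 6 of 6 between DZ and aFM. The letters can therefore mark a pairing of DZ with NY and of DZ with aFM, from the data and from no label. The main fit did not use such a pairing, and the replicate block covered all 4 groups. No library pair agreed within sampling noise.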

Additional observations from a re-analysis of the deposited data

Results flagged for a closer look

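Rows without a miRNA name, outside every comparison made here, held much of the signal. Predicted loci took from 39.3% of a library's counts, in PLL replicate A, to 89.7%, in DZ replicate A. Those named for chromosome 12, which carries the cluster, held 39855 counts in 47 rows, and nothing in their names says whether any lies in the cluster.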

How the results depend on the processing

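For 30 log2 fold changes of members, 618 alternative values were computed. A call was lost in 29 and gained in 25, and the sign changed in 20, none of them a called result. The others kept direction and side of the threshold. With no filter the members called were 4 in aFM against DZ (2.99% of all tested called), 2 in PLL against DZ (3.39%), 3 in NY against aFM (2.2%) and 2 in PLL against aFM (2.99%). They were 1 in PLL against NY (3.19%) and 5 in the joint test (7.58%). With DESeq2 they were 5 in aFM against DZ (21.4% of all tested called), 1 in PLL against DZ (15.6%), 3 in NY against aFM (11.5%), 4 in PLL against aFM (19.5%) and 5 in the joint test (27.5%). With the 2 groups alone they were 4 in NY against aFM (25.0%) and 2 in PLL against aFM (12.4%). With predicted loci in the fit they were 2 in aFM against DZ (11.1%), 3 in PLL against DZ (35.3%), 2 in PLL against aFM (36.5%) and 1 in PLL against NY (25.6%). That fit moved the median of annotated miRNAs to between -0.53 and 2.13. Leaving out 1 library, with 6 or 7 members tested, gave 2 to 4 in aFM against DZ (3.45% to 17.8% of all tested called). It gave 0 to 1 in NY against DZ (0.68% to 1.39%), PLL against DZ (2.74% to 11.9%) and PLL against NY (3.5% to 7.53%). In NY against aFM it gave 0 to 3 (0.68% to 8.22%) and in PLL against aFM 1 to 3 (2.78% to 13.7%). In the joint test it gave 2 to 4 (6.21% to 16.0%).

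The replicate block left 0 members called in NY against DZ, a possibly paired comparison (0.758% of all tested called). It left 3 in aFM against DZ, also possibly paired (7.58%, against 4 members and 18.9% in the main fit). There miR-381-3p had an edgeR adjusted p of 0.0651. The block left 0 in NY against aFM (1.52%), where miR-411-5p had an edgeR adjusted p of 0.0730. A library correlated best with its own letter in 6 of 6 cases between DZ and NY, 6 of 6 between DZ and aFM, 3 of 6 between NY and aFM and 1 of 18 with PLL. Same-letter libraries of aFM and DZ had r = 0.23, 0.06 and 0.17, 1 of them under 0.1. The value of miR-381-3p in NY against DZ was 0.06 in the main fit. It was -0.0018 with RLE factors, -0.16 with upper quartile factors and -0.0012 with DESeq2, and ran from -0.47 to 0.89 without single libraries. Without single libraries, PLL against DZ ran from -0.067 (without PLL replicate B) to 1.69 for miR-381-3p, from -2.34 (without PLL replicate B) to 2.79 for miR-411-5p and from -0.032 (without DZ replicate B) to 1.19 for miR-379-5p. PLL against NY ran from -0.22 (without PLL replicate A) to 0.81 for miR-127-3p and from -0.00038 (without PLL replicate B) to 1.26 for miR-381-3p. With predicted loci, PLL against aFM gave 1.07 for miR-127-3p, 0.012 for miR-379-5p and 0.37 for miR-409-3p, and PLL against NY gave 0.75 for miR-379-5p. The cause of these shifts was not tested.

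The cluster's share was 0.0222%, 0.122%, 0.0579% and 0.158% in DZ, aFM, NY and PLL over all counts. Over the 5 tested members it was 0.0592%, 0.576%, 0.152% and 0.172%. Without miR-127-3p it was 0.569% in aFM, 0.173% in NY and 0.270% in PLL. Depth limits most members: 52 of 95 had no count and 22 had 1 to 9, so differences in them were not detectable at this depth.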
